A study of Homo sapiens with 8 samples.

Results

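The regions described here are 6 intervals of the human genome (hg19) that hold the large clusters of olfactory receptor genes on chromosomes 11 and 1. Their bounds are positions and use no ChIP-seq value, although the clusters were picked with earlier results of these data known. Every H3K27me3 island that touched an interval was taken. Together they span 7.87 Mb. They held 72 of 47432 islands in LY19Y646F and 286 of 58144 islands in LY19WT. On chromosome 11 they run from 4380001 to 6250000 (called 11p15 here, after its chromosome band), from 54900001 to 56600000 (11q11), from 57700001 to 59300000 (11q12) and from 123600001 to 124500000 (11q24). On chromosome 1 they run from 158300001 to 158800000 (1q23) and from 247550001 to 248850000 (1q44).

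The islands came from 2 human lymphoma B-cell lines, both untreated and at passages 10 to 15. LY19Y646F carried EZH2-Y646F, expressed constitutively from a CMV promoter, and LY19WT carried wild-type EZH2. Each line had 3 ChIP libraries, made with a monoclonal H3K27me3 antibody, and 1 input library. The ChIP libraries of a line were merged before the authors called islands with SICER, which joins neighbouring enriched windows into the broad blocks typical of this mark. There is thus 1 island list per line, with no spread between replicates. No difference between the lines, or between the intervals and their surroundings, could be tested. Each EZH2 state is represented by 1 line, so the transgene and any other difference between the cultures cannot be told apart. Whether LY19Y646F kept its own EZH2 is not given in the sources used here. Rank, p-value and FDR in the lists do not give a single total throughout, so a few islands may be missing from them.

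Olfactory receptors are G protein-coupled receptors that bind odorants in the nasal epithelium. Each sensory neuron expresses a single receptor gene, and the rest of the family is kept silent there and in unrelated tissues such as B cells. In the mouse olfactory epithelium the silent clusters carry constitutive heterochromatin marks, H3K9me3 and H4K20me3. H3K27me3 is instead written by EZH2 within Polycomb repressive complex 2 and is best known over CpG-rich promoters of developmental genes. Class I receptors are the older branch of the family, first described in fish, and class II receptors are the larger branch of land vertebrates. All human class I genes lie in the 11p15 cluster.

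The RefSeq gene table (GRCh38.p14) listed 392 protein-coding olfactory receptor symbols and 480 receptor pseudogenes, of which 171 and 205 were on chromosome 11 and 61 and 35 on chromosome 1. All 55 protein-coding class I symbols (families 51, 52, 55 and 56) were on chromosome 11. From OR52B4 to OR52W1 they were interspersed with only 15 other protein-coding genes. The longest unbroken runs of protein-coding receptor neighbours had 31 genes each, from OR5W2 to OR5AK2 on chromosome 11 and from OR2W3 to OR14I1 on chromosome 1. In 11q24 the runs went from OR8D4 to OR10G7 (9 genes) and from OR10D3 to OR8A1 (11 genes). In 11q12 they went from OR9Q1 to OR5B21 (13 genes) and from OR5AN1 to OR4D9 (7 genes), with 12 other protein-coding genes between the runs. In 1q23 they went from OR10T2 to OR10Z1 (8 genes) and from OR6K2 to OR6N2 (5 genes). This table is on another build than the islands. It was used for names and gene order only, runs were assigned to bands from textbook knowledge, and no island is assigned to a gene.

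The bases just upstream of these genes were poor in CpG. Among 162 protein-coding receptor genes of the 6 bands with a RefSeq start window, out of 196, the 250 bases before the annotated start held a median of 1 CpG (quartiles 0 and 2) at 37.2% GC. The same stretch of 15843 protein-coding genes of all kinds held a median of 17 (quartiles 6 and 26) at 62.4% GC. Of the receptor stretches 95.1% held 3 CpG or fewer, against 16.9% of all coding genes. The median was 1 CpG in each of the 6 bands, and median GC content ran from 31.2% in 11q11 to 41.6% in 1q23. In 64 of the 162 genes (39.5%) the annotated start was an ATG, against 3.35% of all coding genes. For these the annotation may begin at the start codon rather than at the transcription start, so the comparison sets partly different kinds of position side by side. To show what these stretches look like, the gene closest to the median of its band is given for 4 bands, the 2 most covered by H3K27me3 in LY19WT (11p15 and 11q24) and the 2 with long empty stretches in both lines (11q11 and 1q44). Each is 250 bases from RefSeq (GRCh38.p14), on the minus strand, 5′ to 3′, with CpG in capitals.
OR52B2 (class I, 11p15): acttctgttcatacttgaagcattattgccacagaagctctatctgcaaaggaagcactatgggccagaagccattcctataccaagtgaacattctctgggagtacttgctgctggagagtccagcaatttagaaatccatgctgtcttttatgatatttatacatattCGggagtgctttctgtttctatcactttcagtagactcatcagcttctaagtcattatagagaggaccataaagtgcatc
OR8B8 (class II, 11q24): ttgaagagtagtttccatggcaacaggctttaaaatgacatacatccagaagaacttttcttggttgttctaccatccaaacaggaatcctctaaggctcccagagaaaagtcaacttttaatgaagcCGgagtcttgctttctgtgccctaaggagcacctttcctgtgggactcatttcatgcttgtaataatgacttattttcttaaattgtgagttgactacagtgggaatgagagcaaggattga
OR5T2 (class II, 11q11): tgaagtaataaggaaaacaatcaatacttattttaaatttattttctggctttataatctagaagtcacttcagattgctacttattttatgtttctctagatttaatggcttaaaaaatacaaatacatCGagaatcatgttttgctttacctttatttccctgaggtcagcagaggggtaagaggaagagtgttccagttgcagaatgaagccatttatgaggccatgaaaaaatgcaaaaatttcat
OR2T27 (class II, 1q44): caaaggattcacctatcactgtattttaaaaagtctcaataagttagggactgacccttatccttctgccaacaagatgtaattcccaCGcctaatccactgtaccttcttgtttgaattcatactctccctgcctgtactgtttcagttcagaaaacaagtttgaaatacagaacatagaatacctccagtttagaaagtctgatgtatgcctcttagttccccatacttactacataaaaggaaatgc
Each of these stretches held 1 CpG, and OR52B2 is among the genes with an ATG at the annotated start. GC content was 40.4% in OR52B2 and OR8B8, 31.2% in OR5T2 and 38% in OR2T27. The CpG count of these 4 genes was set by picking those closest to the median. The median of 1 CpG was the same in bands whose intervals differed widely in H3K27me3, as described next. A relation between the 2 was not tested.

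**Figure D1:**
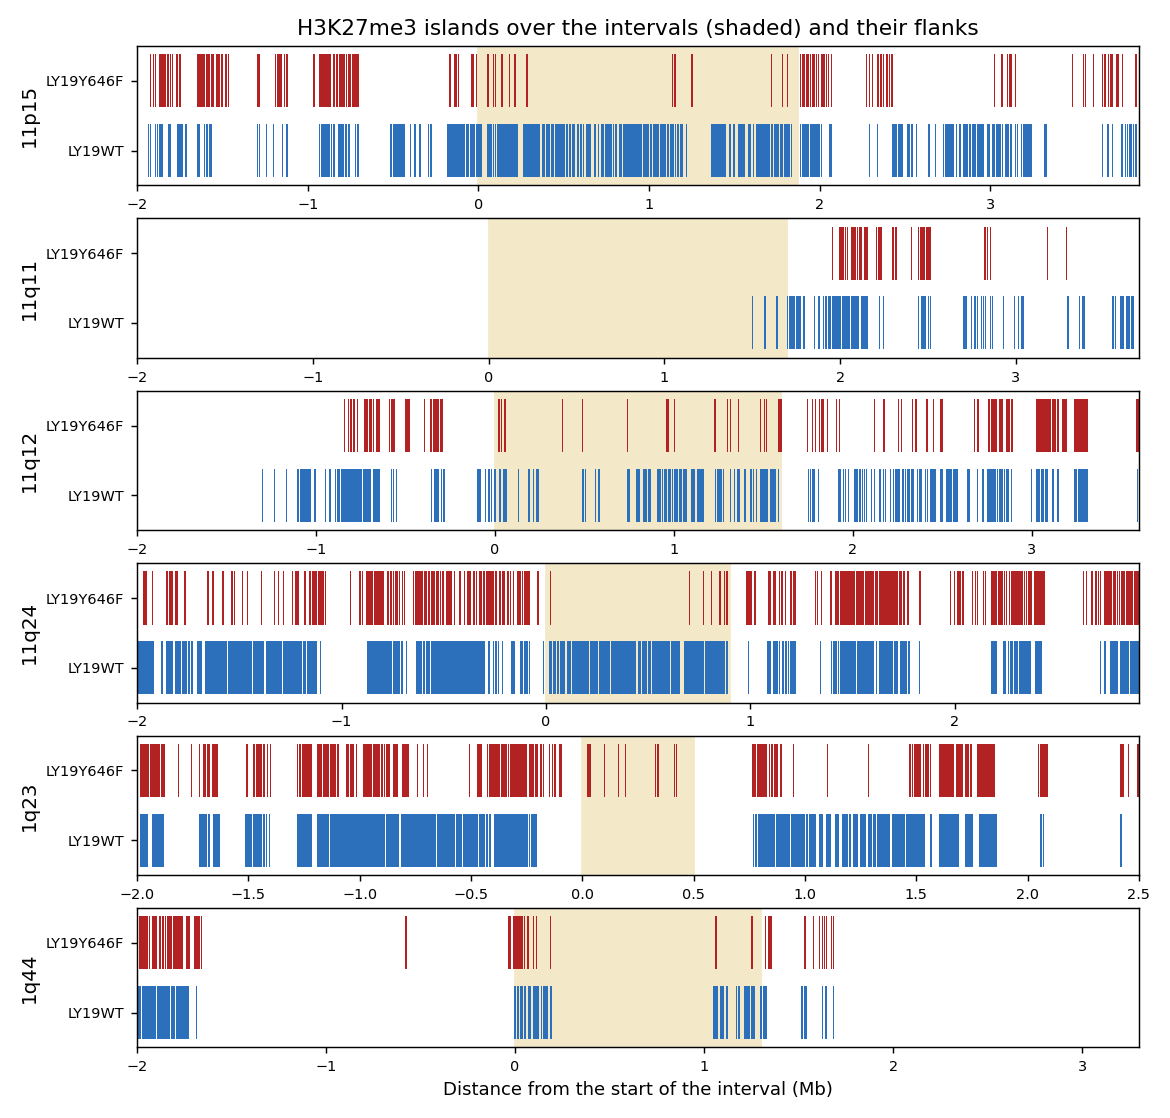
H3K27me3 islands of LY19Y646F (upper row) and LY19WT (lower row) in each panel, drawn to scale against the distance in Mb from the start of the interval, which is shaded. Up to 2 Mb is shown on each side, and bars are islands. LY19WT islands fill most of 11p15 and 11q24, while 11q11, the LY19WT row of 1q23 and the middle of 1q44 are empty or nearly so.

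The clusters differed widely from each other. In LY19Y646F islands took up between 0% and 11.1% of an interval. The values were 11.1% at 1q23, 7.08% at 1q44, 6.69% at 11q12, 5.8% at 11q24, 4.93% at 11p15 and 0% at 11q11. In LY19WT the share was 83.4% at 11q24, 69.3% at 11p15, 35.7% at 11q12, 19.1% at 1q44, 1.46% at 11q11 and 0% at 1q23. All 6 intervals together were covered to 5.07% in LY19Y646F and 36.7% in LY19WT, a ratio of 0.138. Over the autosomes the shares were 13.7% and 19.8%, a ratio of 0.692. In autosomal stretches of the intervals' own lengths, the median of LY19Y646F minus LY19WT ran from -1.73 points (length of 11p15) to 0 points (length of 1q23). Lower coverage in LY19Y646F was thus common elsewhere too. Coverage of the intervals was lower in LY19Y646F in 5 of the 6 intervals and higher at 1q23. With LY19WT islands limited to the same total length as those of LY19Y646F, it was lower at 11p15, 11q12 and 11q24, equal at 11q11, where both lines then had 0%, and higher at 1q23 and 1q44. This cut by p-value kept 21648 of 58144 LY19WT islands but 383.6 of 554.6 Mb. It thus favoured wide islands over small ones. By the authors' scaling the merged LY19WT ChIP library was about 1.17 times as deep at the median input density, and depths could not be made equal without reads.

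A share of 0% means that no island was called. It does not mean that the mark was absent. In the lowest 5% of islands the ChIP density was under 35.4 reads per kb in LY19Y646F and under 45.6 reads per kb in LY19WT. The background given by the authors' library ratio at the median input density was 22.1 and 25.8 reads per kb. Broad signal between these levels could go without an island, although the lowest 5% of islands were called there.

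**Figure D2:**
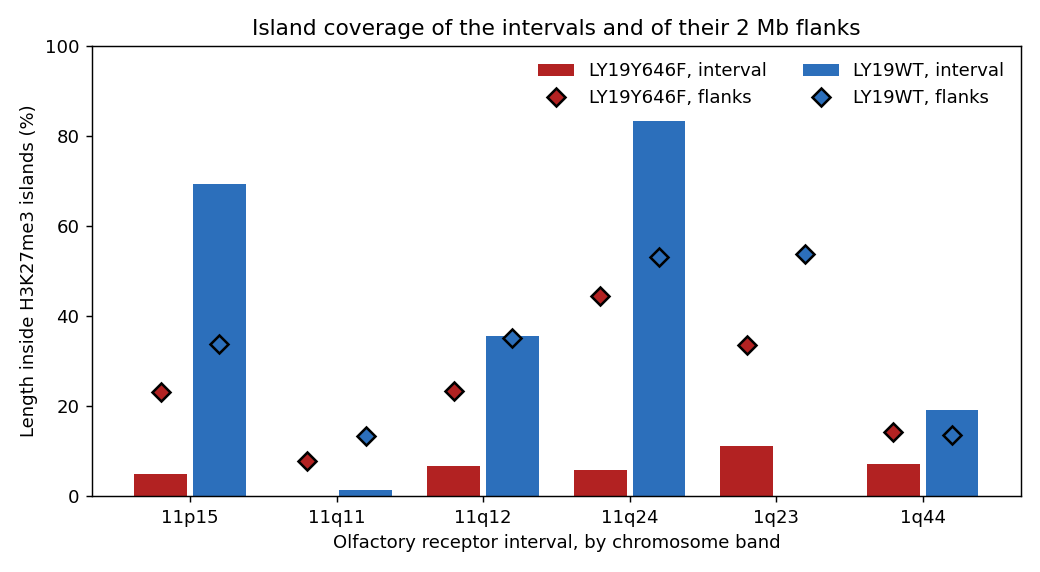
Share of each interval inside H3K27me3 islands (bars, %) and of its flanks of up to 2 Mb on each side (diamonds, %), for LY19Y646F (left of each pair) and LY19WT (right). Each value comes from 1 island list per line, so there are no error bars. The flanks of 11q11 include its left flank, beside the centromere, which held no island in either line. All LY19Y646F bars are below their flanks, and in LY19WT those of 11p15, 11q24 and 1q44 are above theirs, that of 11q12 is level with its flanks, and those of 11q11 and 1q23 are below.

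The surroundings were set beside each interval as flanks of 2 Mb on each side. These leave out the other intervals and end at the last island of the chromosome. LY19Y646F islands covered less of every interval than of its flanks, though at 1q44 the difference of -7.29 points shrank to -0.542 with flanks of 1 Mb. Over all 6 intervals, coverage was 5.07% inside and 26.3% in the flanks of LY19Y646F, a difference of -21.2 percentage points. In LY19WT it was 36.7% inside and 36.1% in the flanks, a difference of 0.64 points that turned to -2.12 with flanks of 1 Mb. That near balance was a sum of opposite local differences in LY19WT, from 35.6 points above the flanks at 11p15 to 53.8 points below them at 1q23. The flanks were themselves covered more than the autosomes, where the shares were 13.7% in LY19Y646F and 19.8% in LY19WT. Autosomal stretches of the intervals' own lengths had LY19Y646F medians from 4.88% (length of 1q23) to 8.28% (length of 11p15). The differences thus depend on well-covered flanks.

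Against autosomal stretches of its own length, 11p15 was among the most covered in LY19WT. Of 1482 non-overlapping autosomal tiles of 1.87 Mb, 16 (1.08%) were covered at least as much in LY19WT. For 11q24 it was 17 of 3089 tiles of 0.9 Mb (0.550%). Chromosome 11 as a whole was covered to 29.15% in LY19WT, against 19.8% over the autosomes. In LY19Y646F these shares were 16.64% and 13.7%. In LY19Y646F neither cluster stood apart. At 11p15 42.7% of the tiles were covered no more than the 4.93% of the cluster, with a tile median of 8.28%, and at 11q24 48.9% were covered no more than its 5.8%, with a median of 6.47%. The difference between the lines can be this large only where LY19WT coverage is this high, so its rank partly repeats that of LY19WT. Coverage of 11p15 was 64.4 points lower in LY19Y646F, and 7 of 1482 tiles differed by at least as much in that direction. At 11q24 it was 77.6 points lower, and 9 of 3089 tiles matched this. None of these tiles lay on chromosome 11, which held 72 and 149 tiles of these lengths. The tiles overlap the intervals themselves and neighbouring tiles share domains, so these counts are a description and not a test. The other clusters were unremarkable by this measure. At 11q12 12.2%, at 1q44 30.5% and at 11q11 50.6% of tiles were at least as much lower in LY19Y646F, and at 1q23 17.0% were at least as much higher.

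**Figure D3:**
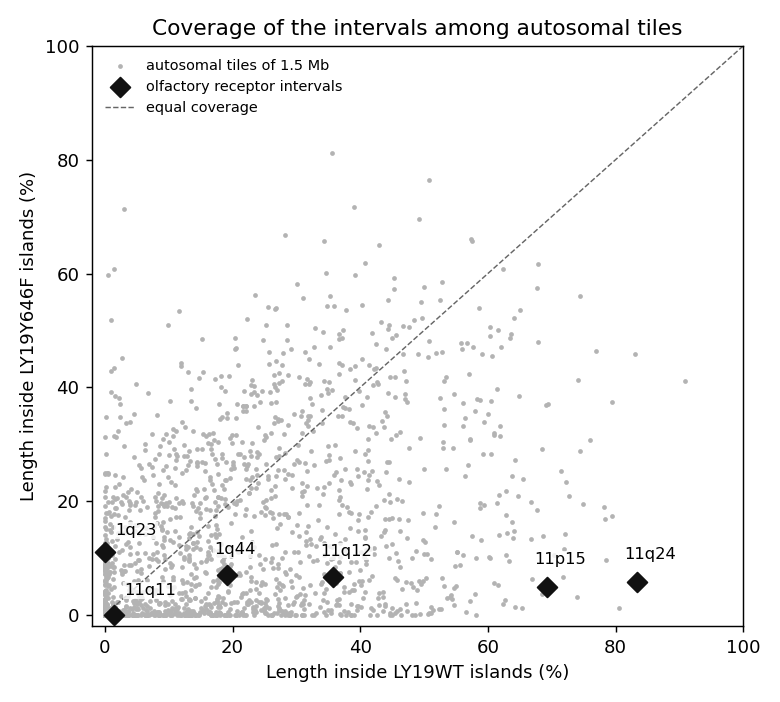
Share of length inside LY19Y646F islands (vertical axis, %) against the share inside LY19WT islands (horizontal axis, %) for autosomal tiles of 1.5 Mb (grey points) and the 6 intervals (black diamonds), with a dashed line of equal coverage. The intervals 11p15 and 11q24 lie at the lower right, at 4.93% and 5.8% in LY19Y646F against 69.3% and 83.4% in LY19WT.

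In windows of 100 kb counted from the start of each interval, 50 of 78 held no LY19Y646F island, 64.1% against 55.1% of all autosomal windows. No LY19WT island lay in 28 of 78, 35.9% against 49.9%, and 24 of 78 held none in either line, 30.8% against 36.9%. The autosomal windows include centromeres, which raises these backgrounds. At least 50% of the window was covered in 1 of 78 in LY19Y646F (1.28%, background 10.1%) and in 33 of 78 in LY19WT (42.3%, background 18.1%). LY19Y646F was at least 50 points below LY19WT in 27 of 78 windows, 34.6% against 9.51% of autosomal windows, and at least 50 points above it in 0 of 78, against 2.60%. Of the 27 windows, 16 were in 11p15, 8 in 11q24 and 3 in 11q12.

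The class I cluster at 11p15 held scattered islands in LY19Y646F and broad blocks in LY19WT. There were 18 islands over 92.2 kb in LY19Y646F and 108 over 1296 kb in LY19WT. The 18 islands formed 3 groups, with 10 from 4432601 to 4671600, 5 from 5515801 to 5637000 and 3 from 6096201 to 6193200. Between the first groups, 844.2 kb from 4671601 to 5515800 held no LY19Y646F island, and LY19WT covered between 61.2% and 90.8% of each whole window from 4680001 to 5480000. No LY19Y646F island exceeded 7.4 kb. The widest, from 4515201 to 4522600, had 301 ChIP reads, 58 input reads and a fold over input of 1.98 as deposited by the authors. The next in width were the islands from 5515801 to 5522800 (7 kb, fold 1.93) and from 4432601 to 4439200 (6.6 kb, fold 1.79). The highest fold, 2.65, belonged to the one from 5531401 to 5535400 with 153 ChIP and 22 input reads.

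LY19WT islands in the same cluster included broad blocks. The widest spanned 98.2 kb from 4514801 to 4613000, with 8781 ChIP and 794 input reads and a fold of 3.6, and 5 LY19Y646F islands overlapped it. The next spanned 74.6 kb from 6016601 to 6091200 (fold 3.14) and 55.8 kb from 5245801 to 5301600 (fold 3.29), and neither met a LY19Y646F island. The highest fold of the cluster, 5.10, came from a small island of 2.8 kb at 5065601 to 5068400 with 12 input reads. LY19WT also had a break, which may hold genes other than receptors, since TRIM22 precedes the run from OR52N4 to OR52W1 in gene order. From 5600801 to 5744000, 143.2 kb held no LY19WT island, and the 2 LY19Y646F islands of the cluster that met no LY19WT island, from 5625401 to 5629800 and from 5631201 to 5637000, lay inside it. The rest of the break, 107 kb from 5637001, was empty in both lines. Coverage did not stop at the ends of the cluster. Islands took 25.8% of the 100 kb before it and 62% of the 100 kb after it in LY19Y646F, and 81.8% and 77% in LY19WT.

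The class II cluster at 11q24 was filled in LY19WT from end to end. LY19Y646F had 9 islands over 52.2 kb and LY19WT 48 over 750.4 kb. The longest stretch without an island was 673.0 kb in LY19Y646F, from 123625001 to 124298000, and 18.4 kb in LY19WT, from 124255601 to 124274000, which was empty in both lines. Apart from a single island from 123620801 to 123625000, the LY19Y646F islands lay from 124298001 to 124491600, in the last part of the cluster. The widest was 13.6 kb, from 124478001 to 124491600, with 503 ChIP and 113 input reads and a fold of 1.70. It was followed by those from 124298001 to 124305400 (7.4 kb, fold 1.92) and from 124367001 to 124373800 (6.8 kb, fold 1.58), and the highest fold, 2.67, was at 124405601 to 124409800. The widest LY19WT island spanned 54.8 kb from 124274001 to 124328800, with 5144 ChIP and 455 input reads and a fold of 3.68. Blocks of 45.8 kb from 124376601 to 124422400 (fold 3.30) and of 44.4 kb from 124424001 to 124468400 (fold 3.24) followed it. The highest LY19WT fold, 4.41, was at 124330401 to 124352600. Here the LY19WT block had sharp ends. Coverage was 64.4% in the first and 82.4% in the last 100 kb of the interval, against 17.8% and 9% in the adjoining 100 kb outside. The flanks were well covered in both lines. Left of the cluster, islands took 41.2% of the flank in LY19Y646F and 66.6% in LY19WT, and right of it 47.7% and 39.5%. The low LY19Y646F coverage of 11q24 thus did not extend to the surrounding 2 Mb.

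The 11q12 cluster was intermediate and patchy. LY19Y646F had 21 islands over 107 kb, in 7 groups, and LY19WT had 89 islands over 570.8 kb. Of the LY19WT islands, 66 lay from 58438401 to 59293200, a stretch that may hold other genes as well as receptors, since the receptor runs of 11q12 are separated. The 148 kb just before it held none in either line. The widest was 8.8 kb in LY19Y646F (59056801 to 59065600, fold 1.5) and 23 kb in LY19WT (58527601 to 58550600, fold 2.34). The next LY19Y646F islands in width were from 59288801 to 59296600 (7.8 kb, fold 1.75) and from 58927401 to 58935000 (7.6 kb, fold 1.56), and the highest fold there, 2.34, was at 58077601 to 58080800. The next LY19WT islands were from 58493601 to 58513200 (19.6 kb, fold 2.57) and from 58757601 to 58776400 (18.8 kb, fold 2.30). The highest LY19WT fold was 4.06, over 15 kb from 58828801 to 58843800. Its difference from the flanks was -16.7 points in LY19Y646F and 0.54 points in LY19WT. The LY19WT value had no stable sign. It was -4.85 at equal covered length and -0.665 with flanks of 1 Mb, and 7.83 when the other intervals were kept in the flanks. When the LY19WT list was cut to the covered length of the LY19Y646F list, coverage was 6.69% in LY19Y646F and 16.9% in LY19WT.

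The 11q11 cluster beside the centromere was almost free of islands in both lines. LY19Y646F had 0 islands in 1.7 Mb. LY19WT had 6, over 24.8 kb, all from 56398601 to 56604000 at the end away from the centromere. The widest LY19WT island, 8.4 kb from 56595601 to 56604000, crossed the end of the interval and had 412 ChIP and 61 input reads and a fold of 2.2, the highest of the 6. The others in order of width included those from 56464601 to 56472800 (8.2 kb, fold 2.03) and from 56534401 to 56539000 (4.6 kb, fold 1.65). The empty stretch reached far beyond the cluster. It ran from 48741801 to 56856400 (8.11 Mb) in LY19Y646F and from 49197801 to 56398600 (7.20 Mb) in LY19WT, and thus across the centromere, where reads rarely map uniquely. Mappability within the cluster was not tested. Of 1632 autosomal tiles of this length, 19.5% held no LY19Y646F island and 15.4% no LY19WT island, and these shares count tiles at centromeres. On the far side, LY19Y646F had no island in the last 100 kb of the interval or in the next 100 kb. LY19WT coverage was 11.2% and 72% there.

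The 1q23 cluster was the interval where the order of the lines turned. LY19Y646F had 11 small islands over 55.4 kb, of at most 7.8 kb and with folds from 1.24 to 2.26. LY19WT had 0. The widest LY19Y646F island, from 158322401 to 158330200, had 296 ChIP and 68 input reads and a fold of 1.66, and the highest fold was at 158764001 to 158766600 with 130 and 22 reads. The second and the third in width lay from 158626201 to 158632600 (6.4 kb, fold 1.43) and from 158712401 to 158718200 (5.8 kb, fold 1.59). The longest gap between them, empty in both lines, was 129 kb from 158497201 to 158626200. In LY19WT the whole cluster lay inside an island-free stretch of 0.962 Mb, from 158102601 to 159064600. Of 5573 autosomal tiles of 0.5 Mb, 29.9% held no LY19WT island, a share that counts tiles at centromeres. The flanks were not empty. They were covered to 33.6% in LY19Y646F and 53.8% in LY19WT. Median input density over flank islands relative to the autosomal median was 1.07 and 1.05 on the left and right in LY19Y646F, and 1.31 and 1.25 in LY19WT. The part of DNA content in the result was not tested.

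At 1q44 islands were confined to the ends of the interval in both lines. LY19Y646F had 13 islands over 92.0 kb and LY19WT 35 over 248.6 kb. The empty middle was nearly the same in the lines, from 247739401 to 248607400 (868 kb) in LY19Y646F and from 247746801 to 248597000 (850.2 kb) in LY19WT. Before it, 10 LY19Y646F islands and 18 LY19WT islands lay within the first 0.2 Mb. Islands took 54.6% of the first window of 100 kb in LY19Y646F and 51.6% in LY19WT. It was the only window of all intervals with LY19Y646F coverage of at least 50%. This window may hold other genes as well as receptors, since GCSAML precedes the run from OR2C3 to OR11L1 in gene order. After the middle, LY19Y646F had 3 islands and LY19WT 17. The widest LY19Y646F island was 12.6 kb, from 247580401 to 247593000 (560 ChIP and 106 input reads, fold 2.02), and the widest LY19WT island 30.4 kb, from 247646001 to 247676400 (2092 and 338 reads, fold 2.01). In LY19Y646F the islands from 248607401 to 248619400 (12 kb, fold 1.35) and from 247615401 to 247625800 (10.4 kb, fold 2.28, the highest there) followed. In LY19WT those from 248597001 to 248623800 (26.8 kb, fold 1.68) and from 248775401 to 248793400 (18 kb, fold 1.71) followed, and the highest fold, 3.23, was at 248815201 to 248816800 over 1.6 kb. Relative input over islands of the interval was 1.05 in LY19Y646F and 1.28 in LY19WT, the highest of the 4 intervals in which both lines had islands. The part of DNA content in the LY19WT coverage was not tested. With the LY19WT list cut to equal covered length, coverage was 7.08% in LY19Y646F and 6.78% in LY19WT, so the order of the lines at 1q44 depends on that choice. With 100 kb trimmed from both ends, coverage was 2.38% in LY19Y646F and 12.7% in LY19WT.

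**Figure D4:**
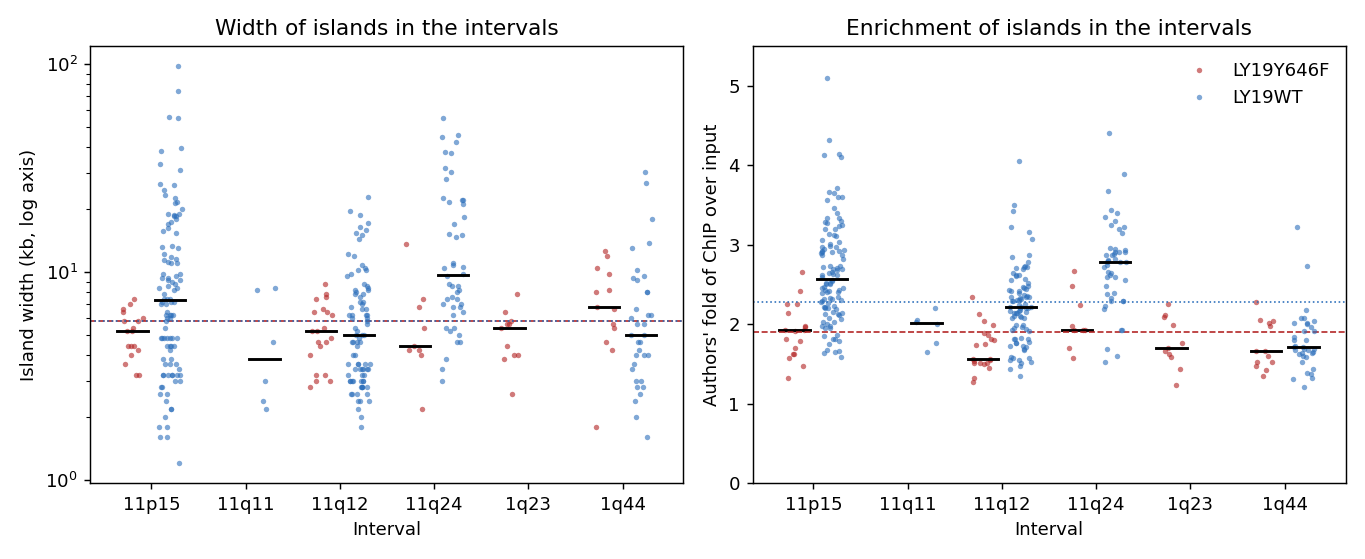
Width in kb on a log axis (left) and the authors' fold of ChIP over input (right) of each island in the intervals, for LY19Y646F (left of each pair) and LY19WT (right). Points are islands, black bars the median of an interval, and horizontal lines the median of the whole list (dashed for LY19Y646F, dotted for LY19WT; both at 5.8 kb on the left). No LY19Y646F island reaches 20 kb, and LY19WT islands over that width occur at 11p15, 11q12, 11q24 and 1q44.

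Islands within the clusters also differed in width and enrichment. The median width was 5.4 kb in LY19Y646F (quartiles 4.2 and 6.6 kb) and 6.4 kb in LY19WT (quartiles 3.6 and 11 kb). Islands over 20 kb numbered 0 of 72 in LY19Y646F and 33 of 286 in LY19WT (11.5%). In the whole lists 5.06% and 9.75% of islands exceeded that width. Median ChIP density was 39.2 reads per kb in LY19Y646F and 58.8 in LY19WT, at input densities of 8.47 and 8.31 reads per kb. The authors' fold had a median of 1.78 in LY19Y646F and 2.33 in LY19WT, beside 1.90 and 2.28 over the whole lists. By interval, the LY19Y646F medians were 1.93 at 11q24, 1.92 at 11p15, 1.70 at 1q23, 1.66 at 1q44 and 1.56 at 11q12. In LY19WT they followed the order of coverage among the chromosome 11 clusters, with 2.78 at 11q24, 2.57 at 11p15, 2.21 at 11q12 and 2.01 at 11q11, and the median was 1.71 at 1q44. A fold is higher by construction where input is low, and relative input was 0.896 at 11p15 and 0.959 at 11q24 in LY19WT, against 1.28 at 1q44.

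The few LY19Y646F islands mostly lay where LY19WT also had islands. Of the 72 LY19Y646F islands, 54 (75%) met a LY19WT island by at least 1 bp, and 48 of 286 LY19WT islands (16.8%) met a LY19Y646F island. Over the whole lists the shares were 56.5% and 39.1%. At 11q24 all 9 LY19Y646F islands met LY19WT, at 1q44 12 of 13, at 11p15 16 of 18 and at 11q12 17 of 21. At 1q23 it was 0 of 11, since LY19WT had none. The shared length was 266.8 kb, 66.9% of the covered length in LY19Y646F and 9.23% of that in LY19WT. Interval length times the covered shares of both lines gives the shared length if the islands of each line lay independently. It was 63.9 kb at 11p15 and 43.5 kb at 11q24, beside shared lengths of 80.2 and 46.6 kb. At 11q12 that product was 38.2 kb and the shared length 69.4 kb, and at 1q44 they were 17.6 and 70.6 kb. The overlap at 11q24 was thus near what its LY19WT coverage of 83.4% alone would give.

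Only 17 pairs of islands in the intervals overlapped by at least 50% of both. Their median fold was 1.70 in LY19Y646F and 2.01 in LY19WT, and the fold was lower in LY19Y646F in 13 pairs and higher in 4. Over the whole lists it was lower in LY19Y646F in 72.7% of 8368 such pairs, with medians of 1.96 and 2.37, so the 76.5% in the intervals was near the background. Each fold is scaled within its own list. The closest match, from 4478001 to 4481200 at 11p15, had identical ends in both lines, with 149 ChIP and 29 input reads in LY19Y646F (fold 1.96) and 176 and 29 in LY19WT (fold 1.98). At 59280201 to 59287600 of 11q12 the pair differed more, with 286 ChIP and 70 input reads in LY19Y646F (fold 1.56), against 345 and 43 in LY19WT (fold 2.61) over an island from 59282201 to 59287000.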

How the data were processed

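The values come from 2 deposited lists of H3K27me3 islands. The submitters' processing notes name the hg19 build, Bowtie2 (2.2.9) and SAMtools (1.3.1), beside SICER and bedtools, whose versions are not given in the sources used here. Islands had been called by SICER from the merged ChIP libraries, with the input as background and an FDR limit of 0.001, per the labels. The deposited counts are raw ChIP and input reads inside an island. The deposited fold is a ratio of these counts, divided by 1 constant per list (2.62 in LY19Y646F and 3.07 in LY19WT, recovered from the values). The deposited p-value and FDR were made by the authors' caller and served only to filter islands. ChIP reads inside islands summed to 17410034 in LY19Y646F and 37556030 in LY19WT, and input reads to 3527109 and 4949411. Total library sizes are not given in the sources used here. Input density is input reads per kb of island, relative to the autosomal median over islands of the line (8.42 in LY19Y646F and 8.41 in LY19WT).

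Positions are 1-based. Coverage is the length inside islands, clipped at interval ends. Islands of an interval are those that touch it, so widths and reads are of whole islands. Tiles and windows spanned each autosome between its outermost islands in either list. They include centromeres, which raises the shares without an island. With 3 or fewer islands in an interval all were to be named, and otherwise the 3 widest and the highest fold. The longest stretch free of islands in both lines was also given. Other islands, stretches and pairs were named after their values were seen. The intervals and lists were chosen with earlier results of these data known. Bands, gene runs and the CpG count were added after the data were seen. The coverage arithmetic was checked on simulated islands. The software was scipy 1.17.1, pandas 2.3.3 and numpy 2.4.6 under Python 3.11.15.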

Additional observations from a re-analysis of the deposited data

How the results depend on the processing

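Coverage of the 6 intervals together remained lower in LY19Y646F than in LY19WT under all 6 alternatives tried. It was 4.75% and 36.5% at an FDR of at most 1e-05, 3.63% and 35.8% at 1e-10, 5.71% and 41.8% with islands joined across gaps of up to 5 kb, 3.01% and 36.1% with intervals trimmed by 100 kb on both sides, and 6.60% and 35.5% with intervals widened by as much. When LY19WT was cut to the covered length of LY19Y646F, taking islands by p-value and then fold, it was 5.07% and 27.0%. Single intervals ranged over these settings, in LY19Y646F and LY19WT, from 3.87% to 8.70% and 57.8% to 78.1% (11p15), 0% throughout and 0% to 5.09% (11q11), 4.05% to 7.38% and 16.9% to 43.5% (11q12), 2.03% to 9.20% and 70.7% to 90.7% (11q24), 7.52% to 12.8% and 0% throughout (1q23), and 2.38% to 9.07% and 6.78% to 22.1% (1q44).

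The intervals minus their flanks gave, in LY19Y646F, -21.0, -19.6, -23.4, -22.1 and -21.5 points under the FDR limits, joining, trimming and widening, and -19.1, -21.4 and -19.1 with flanks of 1 Mb, of 5 Mb and with the other intervals kept in the flanks. In LY19WT the difference was 2.2 with joining, 3.81 with flanks of 5 Mb and 2.63 with the other intervals kept, and turned to -1.16 with widening, -1.84 at equal length and -2.12 with flanks of 1 Mb. For 11q12 in LY19WT it turned to -1.68 with trimming, -1.22 with widening, -4.85 at equal length and -0.665 with flanks of 1 Mb, and for 1q44 to -1.16 with trimming and -3.28 at equal length; the cause was not tested. At 1q44 the LY19Y646F difference was -0.542 with flanks of 1 Mb. The differences over all intervals count the island-free left flank of 11q11. Windows of 500 kb left 38.5% without a LY19Y646F island, where larger windows more often meet one. With an overlap of 50% of both islands, 23.6% of LY19Y646F and 5.94% of LY19WT islands counted as shared, as a stricter rule must lower them.

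No paired analysis was possible because the replicates of a line were merged before islands were called, and for the same reason leaving out each replicate was not run. Depth limits what an empty stretch shows: in the lowest 5% of islands ChIP density was under 35.4 reads per kb in LY19Y646F and 45.6 in LY19WT.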
